A study of Homo sapiens with 21 samples.

Results

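The 10 genes described here encode the subunits of activins and inhibins (INHA, INHBA and INHBB), 3 antagonists of activin or related signals (FST, FSTL3 and BAMBI) and 4 receptors (ACVR1, ACVR1B, ACVR2A and ACVR2B). They are 10 of 19662 protein-coding genes in GENCODE 44. The genes were selected with earlier results of these lists known and their regions were chosen by the position of the measured summits, so the presence and height of the sites are descriptions and were not tested. A region of enrichment was assigned to a gene when its summit lay within 100 kb of the gene body on the hg38 genome. This gave 47 of 26861 regions with estradiol, 24 of 10045 with LY500307 and 5 of 2905 with ethanol.

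The lists come from chromatin immunoprecipitation and sequencing (ChIP-seq) of Flag-tagged estrogen receptor beta (ER-beta) in MDA-MB-231 cells, a human triple-negative breast cancer line carrying a doxycycline-inducible copy of the receptor. The cells of each group had doxycycline at 100 ng/ml for 24 h, so the receptor was induced in the ethanol cells as well. The groups then differed by 3 h of 1 nM estradiol, of LY500307, an agonist selective for ER-beta, or of ethanol, the vehicle. The dose of LY500307 is 10 nM in the characteristics and protocol and 1 nM in the titles. Per the labels there were 4 ChIP and 3 input libraries for each treatment, while the protocol speaks of triplicates. The authors' list of a treatment is a single pooled list, so the values carry no replicate error and the treatments were not tested against each other.

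The fold of a region is the authors' ratio of ChIP signal over local background at its summit. It ranges from 1.61 to 196.5 with estradiol, with a median of 9.50, from 1.81 to 142.6 with LY500307, with a median of 8.46, and from 2.95 to 75.9 with ethanol, with a median of 7.0. Read depth is unknown from these lists. Folds of the same site in different lists therefore stand side by side as the authors' values and do not measure a change, and a site missing from a list is one that did not pass the authors' threshold there. These lists hold no expression values, so neither the level of any of the genes nor the identity of the cells was checked.

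Activins are dimers of the beta subunits encoded by INHBA and INHBB, and inhibins pair a beta subunit with the alpha subunit encoded by INHA. Activins bind a type II receptor (ACVR2A or ACVR2B), which recruits and phosphorylates a type I receptor such as ACVR1B, and this in turn activates SMAD2 and SMAD3. Inhibin competes for the type II receptors, follistatin (FST) and its relative FSTL3 wrap around activin and keep it from its receptors, and BAMBI is a membrane pseudoreceptor without a kinase. The family was first known for setting the output of follicle-stimulating hormone between ovary and pituitary, and activin also restrains the growth of mammary epithelial cells.

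Estrogen receptors bind as dimers to the estrogen response element (ERE), in which the half-sites GGTCA and TGACC face each other across 3 bases. An ERE was counted where a stretch within 100 bp of a summit, read on either strand, departed from these 10 bases at no more than 1 position. GGTCA and TGACC are the same half-site on opposite strands. The stretches below, all on the plus strand of hg38 and written 5′ to 3′, are those on which the description turns. First are the highest site of FST, the strongest of the 10 genes, with 3 of its 4 half-sites in capitals, and the FST promoter site, with its GC box in capitals and no half-site at all.
FST, 3.33 kb upstream (chr5:53477270-53477330): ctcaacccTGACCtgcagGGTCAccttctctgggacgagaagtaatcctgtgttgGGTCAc
FST promoter (chr5:53479917-53480117): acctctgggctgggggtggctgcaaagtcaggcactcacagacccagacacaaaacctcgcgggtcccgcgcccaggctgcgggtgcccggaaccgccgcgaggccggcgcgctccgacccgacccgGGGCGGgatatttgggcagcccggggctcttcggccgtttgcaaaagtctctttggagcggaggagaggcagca
The next set holds the INHBB sites, where 4 of the 6 EREs among the 47 estradiol regions of the 10 genes lay. Capitals mark the ERE and, in the first stretch, the half-sites too.
INHBB, 32.1 kb upstream (chr2:120313984-120314184): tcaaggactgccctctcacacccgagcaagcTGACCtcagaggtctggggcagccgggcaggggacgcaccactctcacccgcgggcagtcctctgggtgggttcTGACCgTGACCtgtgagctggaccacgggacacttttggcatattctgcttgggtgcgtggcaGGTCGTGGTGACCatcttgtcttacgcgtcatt
INHBB, 21.5 kb upstream (chr2:120324557-120324617): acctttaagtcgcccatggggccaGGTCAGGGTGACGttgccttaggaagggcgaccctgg
INHBB, 21.1 kb upstream (chr2:120325035-120325095): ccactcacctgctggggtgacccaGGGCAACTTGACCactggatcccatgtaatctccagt
INHBB, 58.2 kb downstream of the start (chr2:120404258-120404318): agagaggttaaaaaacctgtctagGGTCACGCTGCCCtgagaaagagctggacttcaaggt
The last set gives the highest estradiol site of INHBA and of the genes not yet shown. Capitals mark an ERE at ACVR2B, half-sites and AP-1 elements at ACVR1B, and half-sites elsewhere.
INHA, 93.6 kb upstream (chr2:219478647-219478707): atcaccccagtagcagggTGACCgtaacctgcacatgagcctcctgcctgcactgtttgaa
INHBA, 130 kb downstream of the start (chr7:41573225-41573285): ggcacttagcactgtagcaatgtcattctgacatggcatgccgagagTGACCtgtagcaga
FSTL3 intron 1 (chr19:677413-677473): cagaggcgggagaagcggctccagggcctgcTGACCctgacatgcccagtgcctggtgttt
BAMBI, 17.1 kb upstream (chr10:28660397-28660457): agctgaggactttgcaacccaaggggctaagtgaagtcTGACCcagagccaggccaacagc
ACVR1, 204 kb downstream of the start (chr2:157672284-157672344): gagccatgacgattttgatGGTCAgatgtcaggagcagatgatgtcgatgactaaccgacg
ACVR1B, 66.9 kb upstream (chr12:51884796-51884856): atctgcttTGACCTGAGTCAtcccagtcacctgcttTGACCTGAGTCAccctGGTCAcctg
ACVR2A promoter (chr2:147844030-147844090): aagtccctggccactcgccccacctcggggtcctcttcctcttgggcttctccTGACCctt
ACVR2B, 74.8 kb downstream of the start (chr3:38528623-38528683): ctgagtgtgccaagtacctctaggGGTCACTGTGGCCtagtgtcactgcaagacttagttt

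All 10 genes had an estradiol region within 100 kb, 9 had an LY500307 region (all but ACVR1) and 4 had an ethanol region (INHBA, FST, FSTL3 and ACVR2B). Such windows are wide: 83.2% of all protein-coding genes had an estradiol region, 62.7% an LY500307 region and 32.9% an ethanol region, so having a region does not set these genes apart. The median number of regions per gene was 3 with estradiol, 1.5 with LY500307 and 0 with ethanol, and over all protein-coding genes it was 3, 1 and 0. The genes differed widely among themselves. INHBB had 13 estradiol and 9 LY500307 regions, more than 93.6% and 98.5% of all genes had, while ACVR2A had 1 of each. By the highest estradiol fold, 2.35% of all genes stood above FST, 4.12% above INHBB, 14.5% above BAMBI and 18.8% above INHBA, whereas 76.3% stood above ACVR2A.

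**Figure D1:**
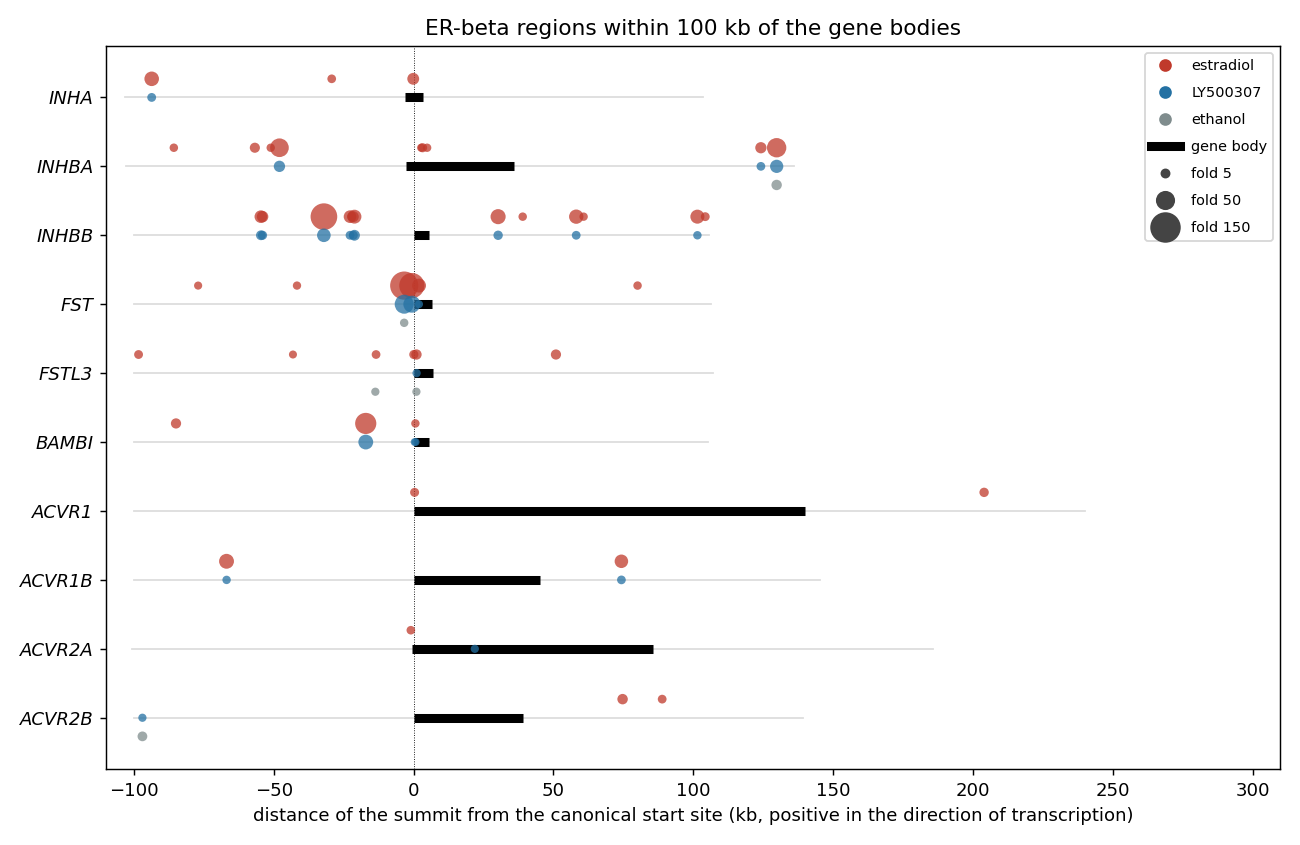
Position of each ER-beta region summit relative to the canonical start site of its gene (horizontal axis, kb, positive in the direction of transcription) in the estradiol, LY500307 and ethanol lists, with point area following the authors' fold, black bars for gene bodies and grey lines for the 100 kb windows. INHBB has no point inside its gene body, and the highest points of FST, with folds of 144.8 and 114.3, sit just upstream of its start.

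Among the ligand subunits, INHBB, which encodes the activin beta B subunit (chr2:120346136-120351803, plus strand), had the most regions of the 10 genes. None of its 13 estradiol or 9 LY500307 summits lay in the gene body or within 1 kb of its start, and it had no ethanol region. The highest was the intergenic region chr2:120313786-120314356, 32.1 kb upstream, with an estradiol fold of 128.8 (rank 251, −log10 q of 531.9) and an LY500307 fold of 28.1 (rank 1080). At its estradiol summit a pair of TGACC half-sites stand in the same orientation with 1 base between them, starting 5 and 11 bp past the summit, and its ERE is centred 74 bp away.

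Nearer to INHBB, 4 estradiol summits lay within 1586 bp, between 22.7 and 21.1 kb upstream. Such crowding was uncommon in the estradiol list, where 0.987% of regions had 3 or more other summits within 2000 bp. The estradiol folds in this cluster were 23.2, 8.49, 15.2 and 29.5 from the distal to the proximal end. With LY500307 all but the second were present, at 7.51, 7.82 and 15.1. Both of the proximal sites held an ERE.

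The remaining INHBB sites lay on both sides of the gene. A pair of summits 615 bp apart in intron 4 of RALB, a Ras-like GTPase gene, had folds of 23.1 and 17.8 with estradiol and 10.9 and 8.61 with LY500307. Downstream of INHBB the estradiol folds were 36.2 at 30.2 kb from the start, 31.8 at 58.2 kb and 30.3 at a site 95.8 kb past the gene's end, and the same sites had LY500307 folds of 9.37, 7.26 and 6.15. The site at 58.2 kb held an ERE. The weak estradiol sites at 39.0, 60.8 and 104 kb past the start, with folds of 6.0 to 7.59, and the site 22.2 kb upstream were in the estradiol list alone.

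INHBA, which encodes the activin beta A subunit (chr7:41667168-41705834, minus strand), was the one gene of the 10 with no other protein-coding gene in its window, and all 9 of its estradiol regions had INHBA as the nearest gene. Its highest region was chr7:41573005-41573476, 93.9 kb past the 3′ end of the gene, which was present in every list. The fold there was 64.4 with estradiol (rank 1567), 26.1 with LY500307 (rank 1228) and 13.3 with ethanol (rank 453 of 2905). The summits of the 3 lists lay within 17 bp of each other. A second site on the same side, 124 kb from the start, had an estradiol fold of 16.8 and an LY500307 fold of 7.19.

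Upstream of INHBA the highest site was the intergenic region chr7:41750781-41751259, at 47.9 kb, with an estradiol fold of 59.1 (rank 1791) and an LY500307 fold of 17.2 (rank 2154). Sites at 51.1 and 56.7 kb, with folds of 6.08 and 12.2, were in the estradiol list alone, and the second of them held an ERE with 1 mismatch.

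Inside INHBA the estradiol list alone had weak sites. Their folds were 5.39 in a coding exon, 253 bp from an alternative start, and 8.49 and 6.04 in intron 2. A further site 85.7 kb upstream had a fold of 6.33. No INHBA summit of any list lay within 1 kb of the canonical start.

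INHA, which encodes the inhibin alpha subunit (chr2:219569162-219575711, plus strand), lies among 10 other protein-coding genes. Its promoter held a region in the estradiol list alone, chr2:219572007-219572346, with a fold of 19.5 (rank 6742) and a summit 111 bp before the canonical start. The 100 bp on either side of that summit held no half-site, no ERE even with 2 mismatches and no AP-1 element. It was the highest estradiol region of the 10 genes that was absent from the LY500307 list. This promoter is shared by annotation with OBSL1, a cytoskeletal adaptor gene read in the other direction. The highest region in the INHA window lay 93.6 kb upstream in intron 22 of SPEG, a muscle kinase gene, with an estradiol fold of 33.1 and an LY500307 fold of 7.53. The other site, in the estradiol list alone with a fold of 7.0, was at the promoters of CHPF and TMEM198.

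**Figure D2:**
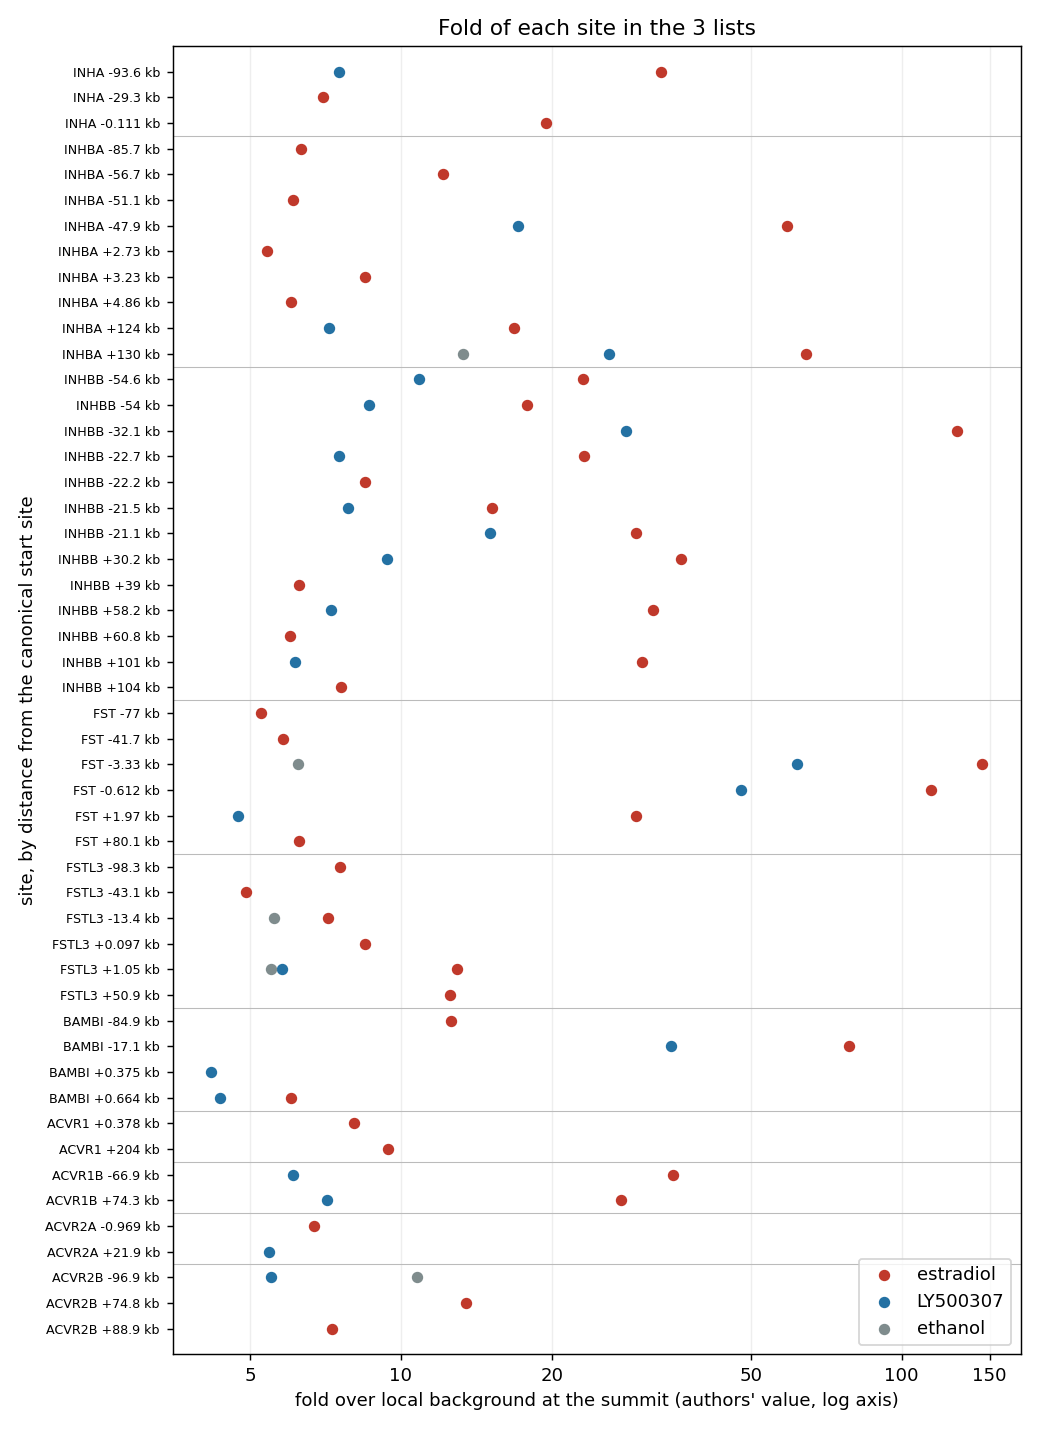
Fold over local background at the summit (authors' value, horizontal log axis) of each of the 50 sites near the 10 genes, with one row per site named by gene and distance in kb from the canonical start, and points for the estradiol, LY500307 and ethanol lists. At all 21 sites with an estradiol and an LY500307 point the estradiol point lies further right, and 25 rows have an estradiol point alone.

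Among the antagonists, FST, which encodes follistatin (chr5:53480626-53487134, plus strand), had the highest fold of the 10 genes in both ligand lists. The intergenic region chr5:53476947-53477521, 3.33 kb upstream, had an estradiol fold of 144.8 (rank 135, −log10 q of 599.1), an LY500307 fold of 61.9 (rank 241) and an ethanol fold of 6.22 (rank 1824 of 2905). The 3 summits lay within 20 bp of each other. The site was thus near the top of both ligand lists and below the median of the ethanol list. It held no ERE even with 2 mismatches allowed. It held 4 half-sites, among them a TGACC and a GGTCA facing away from each other with 5 bases between them, the second starting 12 bp before the estradiol summit.

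The FST promoter held the other strong site, chr5:53479803-53480283, with its summit 612 bp before the canonical start. Its fold was 114.3 with estradiol (rank 399) and 47.8 with LY500307 (rank 423), and no ethanol region overlapped it. The 100 bp on either side of its summit, 69.2% G and C, held neither a half-site nor an ERE, and a single GC box (GGGCGG, bound by SP1-like factors). Strong regions of this kind were a minority: of 608 estradiol regions with a fold of 100 or more, 13% held no half-site, and 44 (7.24%) also held no ERE with 2 mismatches allowed. A weaker FST site, in intron 1, had an estradiol fold of 29.5 and an LY500307 fold of 4.72. The last 3, with folds of 5.25 to 6.25, were in the estradiol list alone, and the one furthest downstream was at the promoter of NDUFS4, a mitochondrial complex I gene.

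BAMBI (chr10:28677510-28682932, plus strand) had 1 strong site, the intergenic region chr10:28660218-28660711, 17.1 kb upstream. Its fold was 78.5 with estradiol (rank 1086, −log10 q of 340.4) and 34.6 with LY500307 (rank 765), with 2 half-sites and no ERE. Weak sites lay at the start of the gene. One in intron 1 had an estradiol fold of 6.04 and an LY500307 fold of 4.35, and one in the 5′ UTR, 375 bp past the start, had a fold of 4.18 with LY500307 alone. This LY500307 region, with a −log10 q of 2.93 (rank 9995 by that value), was near the bottom of its list. It ended at position 28678028, just before the estradiol region in intron 1 began at 28678031. The other site, in intron 6 of WAC, had an estradiol fold of 12.6 and was in the estradiol list alone.

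FSTL3 (chr19:676392-683392, plus strand), a secreted relative of follistatin, had 6 estradiol regions but none of high fold. The region in its intron 1, chr19:677258-677606, was present in every list, at 12.9 with estradiol (rank 10142), 5.78 with LY500307 (rank 8201) and 5.50 with ethanol (rank 2241). The promoter region, 97 bp past the start, had an estradiol fold of 8.49 and was in the estradiol list alone. A region in intron 1 of RNF126, a ubiquitin ligase gene 13.4 kb upstream, had an estradiol fold of 7.15 and an ethanol fold of 5.57 and was not in the LY500307 list, and its summits lay 255 bp apart. The remaining 3 were in the estradiol list alone, at 4.90, 7.57 and 12.5.

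The last of these, 50.9 kb past the FSTL3 start in intron 3 of PALM, lies on a run of short repeated units. It was picked out after its values were seen, because 16 half-sites lie within 100 bp of its summit, all of them TGACC, against a median of 1, both over the estradiol list and over the regions of the 10 genes. This count was reached by 2 regions of the estradiol list, this one included. The stretch, with half-sites in capitals, shows the repeated unit.
PALM intron 3 (chr19:727210-727410): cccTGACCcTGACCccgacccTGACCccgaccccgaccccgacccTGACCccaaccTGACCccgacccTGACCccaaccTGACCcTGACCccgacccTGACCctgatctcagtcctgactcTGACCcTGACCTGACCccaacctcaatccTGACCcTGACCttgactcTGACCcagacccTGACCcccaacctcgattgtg

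The receptor genes had few and mostly weak sites. ACVR1B, the main type I receptor for activin (chr12:51951699-51997078, plus strand), had 2 estradiol regions, and both were also in the LY500307 list. The one 66.9 kb upstream, chr12:51884647-51885032, had an estradiol fold of 35.0 (rank 3553) and an LY500307 fold of 6.09 (rank 7618). It holds 3 AP-1 elements (TGANTCA, bound by FOS and JUN proteins) and 4 half-sites, and in the stretch above a TGACC runs directly into an AP-1 element at 2 places. The other, in an intron of the nuclear receptor gene NR4A1, had an estradiol fold of 27.5 and an LY500307 fold of 7.12. Neither had ACVR1B as its nearest gene.

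ACVR2B, a type II receptor (chr3:38453890-38493142, plus strand), had a region in its window that was in the LY500307 and ethanol lists but not in the estradiol list. It lay in the 3′ UTR of XYLB, a xylulokinase gene 96.9 kb upstream, with a fold of 5.51 with LY500307 (rank 8498) and 10.8 with ethanol (rank 644). It was the one site of the 10 genes whose ethanol fold stood above that of a ligand list. The highest estradiol region of ACVR2B, 74.8 kb past the start and nearest to EXOG, had a fold of 13.5 and an ERE. It and a site with a fold of 7.28 were in the estradiol list alone.

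ACVR2A, the other type II receptor (chr2:147844517-147930826, plus strand), had a promoter region with a fold of 6.70 in the estradiol list alone, 457 bp from its nearest start, and a region in intron 1 with a fold of 5.44 in the LY500307 list alone. ACVR1, a type I receptor mainly of bone morphogenetic proteins (chr2:157736251-157876330, minus strand), had no LY500307 or ethanol region. Its promoter region, annotated to UPP2 as well, had an estradiol fold of 8.04, with 85.6% G and C around the summit. Its other region, 204 kb from the start and nearer to ACVR1C, had an estradiol fold of 9.40.

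**Figure D3:**
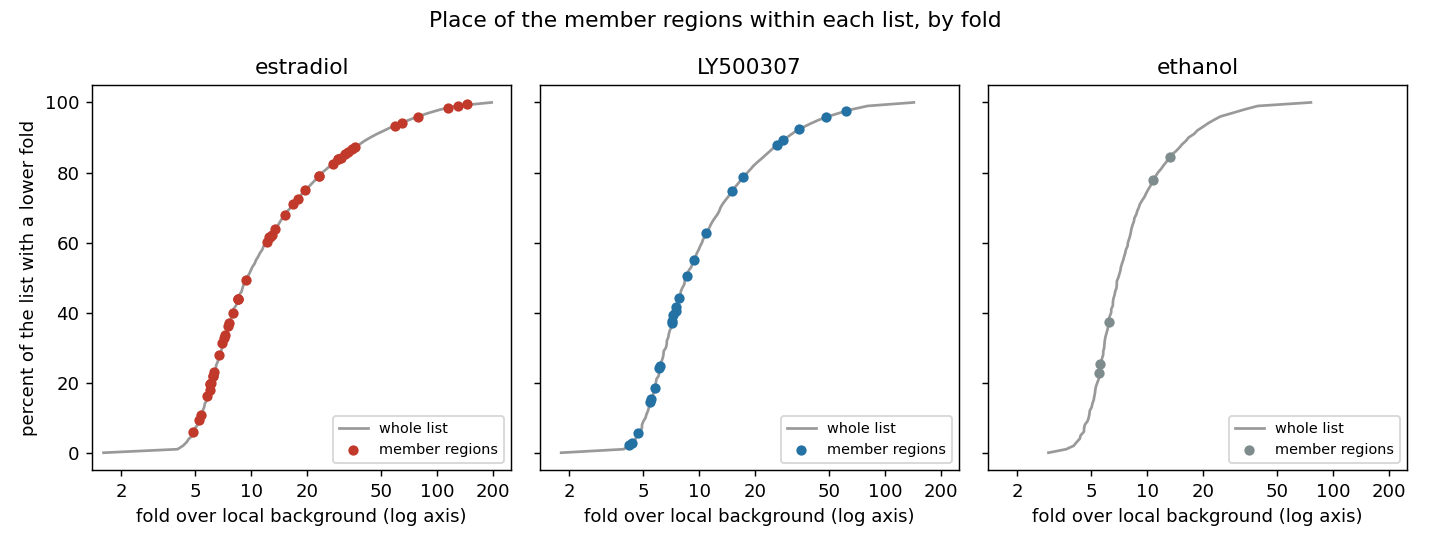
Percent of each list with a lower fold (vertical axis) against the authors' fold (horizontal log axis) in the estradiol, LY500307 and ethanol lists, with the whole list as a grey line and the regions of the 10 genes as points. The regions span each list: 25 of 47 estradiol, 10 of 24 LY500307 and 2 of 5 ethanol regions lie above the median fold of their list.

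Over all 10 genes, the regions spread along each list. The median fold was 12.5 with estradiol, against 9.50 for that whole list, 7.52 with LY500307, against 8.46, and 6.22 with ethanol, against 7.0. In the upper 10% of their list by fold were 6 of the 47 estradiol regions, 3 of the 24 LY500307 regions and none of the 5 ethanol regions. The 6 estradiol ones were 2 each at FST and INHBA and 1 each at INHBB and BAMBI. The rule for membership used position and not fold, but the genes were proposed with these folds known, so this is a description.

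Which sites were shared between treatments was asked next, with sharing counted as an overlap of at least 1 bp. Of the 47 estradiol regions, 21 overlapped an LY500307 region (44.7%, 95% Wilson interval 31.4 to 58.8, which covers counting error only), against 33.8% of the whole list, and 4 overlapped an ethanol region (8.51%, 3.36 to 19.9), against 9.26%. Of the 24 LY500307 regions, 21 overlapped an estradiol region (87.5%, 69.0 to 95.7), against 91.9% of the list, and 4 an ethanol region (16.7%, 6.68 to 35.9), against 22.9%. Of the 5 ethanol regions, 4 overlapped an estradiol region, against 87.0% of the list, and 4 an LY500307 region, against 79.8%. For the 5 ethanol regions the interval was 37.6 to 96.4%. The intervals treat regions as independent, although 13 of the 47 estradiol regions were at INHBB. They are therefore no test of the 10 genes against the lists.

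Estradiol regions that overlapped an LY500307 region mostly had higher folds than the others, with overlapping ranges. The 21 shared regions had a median estradiol fold of 30.3 (6.04 to 144.8), and the 26 that were not shared one of 7.21 (4.90 to 19.5). All 16 estradiol regions of the 10 genes with a fold of 20 or more overlapped an LY500307 region, against 90.2% of the 6573 such regions of the whole list. Merged over the lists there were 50 sites, of which 3 were in all lists (at INHBA, FST and FSTL3), 20 in a pair of lists, 25 in the estradiol list alone, 2 in the LY500307 list alone and 0 in the ethanol list alone. The BAMBI site counted in the LY500307 list alone lay beside an estradiol region that it did not overlap. Of all 27846 sites merged in the same way, 7.71% were in all lists, 26.4% in a pair, 62.6% in the estradiol list alone, 2.41% in the LY500307 list alone and 0.833% in the ethanol list alone. At 20 of the 23 sites found in more than 1 list the summits lay within 30 bp of each other, with a median of 10 bp. The same count over all merged sites is not given, so this does not set the 10 genes apart.

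An ERE with at most 1 mismatch lay at 6 of the 47 estradiol summits (12.8%, 5.98 to 25.2), at 4 of the 24 LY500307 summits and at none of the 5 ethanol summits (0 to 43.4%), against 13.8%, 15.7% and 15.0% of the whole lists. The genes were therefore near the list-wide shares. None of these EREs was free of mismatches, and over the whole lists 1.65%, 1.84% and 2.38% of summits held one that was. All 4 of the LY500307 EREs and 4 of the 6 estradiol EREs were at INHBB, and the others were at INHBA and ACVR2B. The centre of the element lay 13 to 74 bp from the estradiol summit, with a median of 24 bp. Of the 6 regions in the upper 10% of the estradiol list, 1 held an ERE, the INHBB site at 32.1 kb, against 21.1% of that part of the list.

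Half-sites were at 35 of the 47 estradiol summits, against 71.2% of the list. AP-1 elements were at 7, against 17.5%, TEAD elements (GGAATG) at 5, against 16.3%, and GC boxes at 5, against 20.8%. All were sought on both strands without a mismatch, and a match describes the sequence, not a bound factor. By position, 7 of the 47 estradiol summits were at a promoter of a protein-coding gene (14.9%, 7.41 to 27.7), against 16.4% of the list, while 13 were in introns, 2 in coding exons and 25 intergenic. The gene itself had the nearest start for 32 of 47 estradiol, 18 of 24 LY500307 and 3 of 5 ethanol regions. No list-wide share stands beside the intron, coding exon, intergenic and nearest-start counts, so they describe these regions alone.

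**Figure D4:**
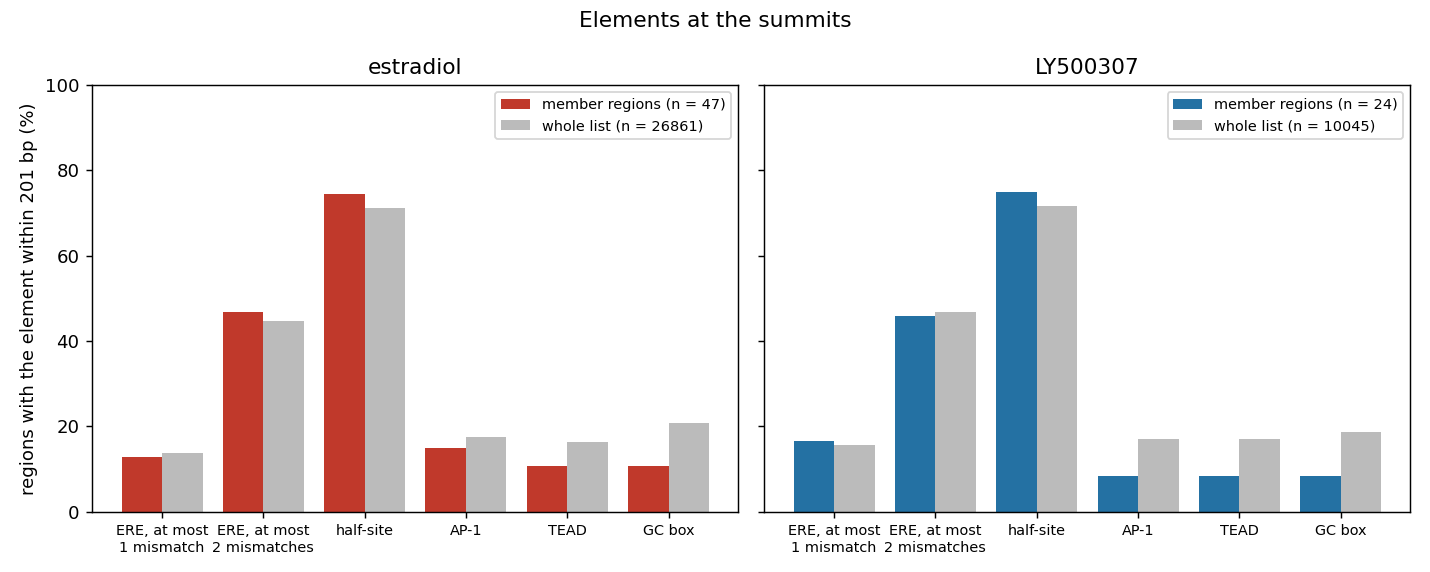
Percent of regions with each element within 100 bp of the summit (vertical axis) for the regions of the 10 genes (coloured bars) and the whole list (grey bars), in the estradiol and LY500307 lists. The ERE with at most 1 mismatch is at 12.8% of the 47 estradiol regions of the genes and at 13.8% of that list.

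The promoters of the genes were compared with the RefSeq promoter set of GRCh38.p14, 250 bases before to 50 after each start. Of its 35116 promoters, 37.4% held a half-site, 45.0% a GC box, 7.71% an AP-1 element and 0.817% an ERE with at most 1 mismatch. No promoter of the 10 genes held an ERE. The INHA promoter was the one with an ER-beta summit inside this window. That promoter also held 1 AP-1 element, which was not within 100 bp of the summit. The FST promoter held 3 GC boxes, 1 AP-1 element and no half-site, and its strong region lay just upstream of that window.

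A list of 25 further genes of the pathway, also drawn up with earlier results known, was counted the same way. All 25 had an estradiol region, 16 an LY500307 region and 7 an ethanol region, with a median of 4, 1 and 0 regions per gene. Over all protein-coding genes the shares with a region were the 83.2%, 62.7% and 32.9% given above and the medians 3, 1 and 0. The LY500307 and ethanol values of the list were thus near the background. Its estradiol share and median stood above it, which was not tested. Neighbouring genes such as INHBC and INHBE have overlapping windows and are not separate observations. Some regions of this list are also regions of the 10 genes. The only estradiol and LY500307 regions of ACVRL1 are the ACVR1B site with folds of 35.0 and 6.09. The ACVR1 region with an estradiol fold of 9.40 also lies in the window of ACVR1C. The genes of this list named here were picked after their values were seen. FOXH1 and TGFBR3L share their windows with 17 and 8 other protein-coding genes, and the nearest gene of each region was not counted for this list. FOXH1 had 17, 2 and 0 regions and TGFBR3L 10, 5 and 2 in the estradiol, LY500307 and ethanol lists. The inhibitory SMAD gene SMAD7 had 17, 6 and 3 regions, with highest folds of 176.9, 126.8 and 41.7, in the same order. Of all genes, 97.6% had fewer estradiol, 94.0% fewer LY500307 and 96.1% fewer ethanol regions than SMAD7. SMAD3, which carries the activin signal to the nucleus, had 20, 10 and 3, with highest folds of 133.6, 73.7 and 8.48, and 99.1%, 99.1% and 96.1% of all genes had fewer regions. PMEPA1, which dampens SMAD activation, had 15, 7 and 2, and 96.0%, 96.2% and 88.8% of all genes had fewer. By contrast SMAD2 and SMAD4, the partners of SMAD3, had a single estradiol region each, with folds of 5.6 and 6.5, and none in the other lists. NODAL, a ligand that uses the same receptors, had 1 region in each list, at 111.7 with estradiol, 47.4 with LY500307 and 8.04 with ethanol.

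The edge of the windows leaves some sites out. For INHBB the last estradiol site inside lay 98.6 kb from the gene body, with a fold of 7.59, and the first outside lay 102 kb away, also with a fold of 7.59. For FSTL3 the sites on either side of the edge, at 98.3 and just over 100 kb, had folds of 7.57 and 25.6. For ACVR1 the first estradiol site outside, at 108 kb, had a fold of 35.5, against 9.40 for the site inside at 63.9 kb, and it belongs to the window of ACVR1C.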

How the data were processed

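Flag-ER-beta ChIP-seq gave 3 deposited lists. The 4 ChIP libraries of a treatment share a single list per the labels, read here as pooled. Bowtie2 2.2.6, MACS2 2.1.1.20160309, DiffBind and hg38 are named in the submitters' processing notes, without their steps. The fold is the authors' deposited ratio over local background at the summit, and the −log10 q values are the authors' deposited ones. Single libraries and inputs were not analysed here.

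Only chromosomes 1 to 22, X and Y were used, which kept 26861 of 26896 with estradiol, 10045 of 10059 with LY500307 and 2905 of 2911 with ethanol. Positions count from 1. Gene bodies, starts and exons came from GENCODE 44, where CRIPTO is TDGF1, and promoters ran from 1000 bp before to 100 bp after a protein-coding start. Ranks are by fold within a list. The overlap rules and the ERE search were tested on simulated data, and the assignment of regions to genes was not. Python 3.11.15 with numpy 2.4.6, pandas 2.3.3, pysam 0.24.0 and matplotlib 3.10.9 was used.

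The genes and lists were chosen with earlier results of these data known, and no test was run because each treatment has a single pooled list. Of each gene, the highest region per list, regions within 1 kb of a start and regions in all lists were named. Other regions the text singles out (EREs, clusters, half-site runs) and the further pathway genes it names were picked after their values were seen. Alternatives covered window, list length, overlap, threshold, annotation and ERE definition.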

Additional observations from a re-analysis of the deposited data

How the results depend on the processing

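With a 50 kb window the 10 genes kept 30 estradiol, 15 LY500307 and 3 ethanol regions, with 2 genes having an ethanol region. With a 20 kb window there were 14, 8 and 3 regions, and 4 genes had an LY500307 and 2 an ethanol region. With the 2905 highest regions of each list, there were 6 estradiol and 7 LY500307 regions at 4 genes in each list. Of these, 6 were shared between estradiol and LY500307 in either direction, and 2 in each sharing with ethanol. The whole-list shares at equal length are not given. Of all 2688 regions in the upper 10% of the estradiol list, 100% overlapped a region of the full LY500307 list and 49.9% one of the full ethanol list. Requiring 50% of each region left 2 shared between estradiol and ethanol, counted from either list. EREs without a mismatch numbered 0 with estradiol and 0 with LY500307, against 1.65% and 1.84% of the whole lists. With at most 2 mismatches they numbered 22 with estradiol, 11 with LY500307 and 2 with ethanol, against 44.6%, 46.9% and 39.8%. Within 50 bp of the summit, 2 LY500307 regions held an ERE. The counts thus depend on these settings, and with lists of equal length the estradiol count no longer exceeded that of LY500307. Ranked by −log10 q, the highest FST region was 227 in the estradiol list, against 135 by fold. Of the other 40 recomputed values, 19 equalled the reported ones and 21 changed by at most 1.5 times, such as genes with an estradiol region (7 within 20 kb, against 10) and estradiol EREs (4 within 50 bp, against 6). No paired analysis was possible because each treatment has 1 pooled list with no replicate values, and for the same reason no library could be left out. The unknown depth of the lists limits what an absent region can mean.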
